A study of Mus musculus with 7 samples.

Results

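The genes described are the 6 myosin heavy chains by which skeletal muscle fibres are typed: Myh4 (type IIb, the fastest), Myh1 (type IIx), Myh2 (type IIa), Myh7 (type I, slow), Myh3 (embryonic) and Myh8 (perinatal). They were taken by gene symbol from the files of the mutant mice and by the same Ensembl identifiers from those of the wild type, and are 6 of 56854 identifiers listed for every library, of which 29121 had a count. All 6 had counts in all 7 libraries and passed the filter on low counts. The libraries are poly(A) RNA of whole shoulder joints, 1 per mouse, from wild-type mice (n = 3) and mice without Tenascin C, a glycoprotein of the extracellular matrix (Tnc-/-, n = 4). In every mouse the supraspinatus tendon of the left shoulder had been repaired, and the joint was taken 2 weeks later, so no group without surgery enters these comparisons. The labels give neither the ages of the mice nor how the Tnc allele was made.

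Myosin heavy chain is the motor of the thick filament: its head splits ATP and pulls on actin, and its tail packs into the filament. The form a fibre makes sets its speed of shortening, from slow type I through IIa and IIx to IIb, and a fibre can hold more than 1 form. Embryonic and perinatal forms are made in developing fibres and again for a time in fibres that regenerate after injury. A whole joint holds muscle beside tendon, bone, cartilage and marrow, and in bulk RNA fewer fibres cannot be told apart from less RNA per fibre.

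In the mouse genome Myh3, Myh2, Myh1, Myh4 and Myh8 stand in this order on the + strand of chromosome 11, and Myh7 is on chromosome 14. The RefSeq promoter windows below (GRCm38.p6, from 250 bases before to 50 bases after the gene start) are shown because the adjoining genes Myh2, Myh1, Myh4 and Myh8, which hold the 3 most abundant forms, have a 14-base run in common. The submitters' processing notes name a later build, GRCm39, so these coordinates are not those of the counting. Capitals mark that run, TTCTAATTATATCC, then the 15-base run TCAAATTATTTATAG and each TATAAA.
Myh4, chr11:67237562-67237861, + strand: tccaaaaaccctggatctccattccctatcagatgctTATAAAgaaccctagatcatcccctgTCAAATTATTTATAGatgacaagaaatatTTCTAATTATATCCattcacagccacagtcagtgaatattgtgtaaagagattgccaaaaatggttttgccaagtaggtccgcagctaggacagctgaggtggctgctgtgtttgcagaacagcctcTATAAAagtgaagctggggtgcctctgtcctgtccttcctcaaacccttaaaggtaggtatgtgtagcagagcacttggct
Myh1, chr11:67199852-67200151, + strand: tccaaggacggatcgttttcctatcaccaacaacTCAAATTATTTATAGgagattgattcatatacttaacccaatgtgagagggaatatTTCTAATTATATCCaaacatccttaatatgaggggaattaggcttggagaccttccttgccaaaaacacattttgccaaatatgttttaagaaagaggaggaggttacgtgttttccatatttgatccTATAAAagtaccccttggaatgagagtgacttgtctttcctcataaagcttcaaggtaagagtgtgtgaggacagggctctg
Myh2, chr11:67170777-67171076, + strand: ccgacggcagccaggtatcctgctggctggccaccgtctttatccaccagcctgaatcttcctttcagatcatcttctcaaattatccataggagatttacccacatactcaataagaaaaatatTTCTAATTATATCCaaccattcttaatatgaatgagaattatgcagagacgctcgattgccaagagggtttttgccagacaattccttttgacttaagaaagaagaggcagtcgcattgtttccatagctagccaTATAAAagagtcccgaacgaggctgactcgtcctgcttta
Myh8, chr11:67276874-67277173, + strand: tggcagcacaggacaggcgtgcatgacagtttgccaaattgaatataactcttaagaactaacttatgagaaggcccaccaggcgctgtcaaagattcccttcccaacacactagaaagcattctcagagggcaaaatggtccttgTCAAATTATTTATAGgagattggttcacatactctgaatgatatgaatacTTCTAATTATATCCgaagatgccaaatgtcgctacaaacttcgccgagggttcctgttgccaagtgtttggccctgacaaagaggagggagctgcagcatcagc

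The 14-base run was sought as the longest run common to the windows of Myh1, Myh2, Myh4 and Myh8, so their holding it was fixed in advance. Its share of all windows is therefore no measure of enrichment. The run was in 4 of 32851 promoter windows (0.0122%), those of Myh1, Myh2, Myh4 and Myh8. It started there at positions -160, -125, -158 and -54 relative to the gene start. The 15-base run, sought in the same way from Myh1, Myh4 and Myh8, was in 3 windows (0.00913%), those of these genes. The windows of Myh3 and Myh7 held neither run. Other letters were searched on both strands. TATAAA, found in 13.6% of all windows, was in the windows of all members but Myh7; in the 15-base run it reads TTTATA and overlaps the match to the MEF2 consensus (3.19% of windows) that Myh1, Myh4 and Myh8 had. The window of Myh4 also held 3 E-boxes (CANNTG, 72.3% of windows), 1 MCAT element (CATTCC, 14.7%) and 1 CArG box (1.63%). E-boxes were also in windows of Myh7, Myh3 and Myh8, and an MCAT match in windows of Myh1 and Myh7. Among the members only Myh4 had a CArG box. These are matches of letters, and binding was not measured.

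The coding sequences of the 6 genes are 5808 to 5829 bases long (GENCODE M21, GRCm38). Those of Myh1 and Myh2 were identical at 91.1% of aligned bases and those of Myh1 and Myh4 at 90.2%, whereas Myh3 was identical to the others at 76.7 to 81.1%. Reads can therefore fall where members are alike. Of all 75-base stretches of its exons, 22.0% for Myh1, 18.3% for Myh2, 19.7% for Myh7, 12.9% for Myh8, 9.68% for Myh4 and 1.86% for Myh3 also occur in another gene, which for Myh7 is mainly Myh6. At 150 bases the highest of these shares was 6.5%, for Myh7. The deposited files of Tnc-/- set aside 11.4 to 11.6% of reads as ambiguous and 6.7 to 8.3% as not unique, while those of wild type hold no such rows. Which genes these reads came from is not given in the sources used here, so values of Myh1, Myh2 and Myh7 are less certain than those of Myh4 and Myh3. On the opposite strand, exons of Myhas overlap 8.11% of those of Myh1, and exons of 9430073C21Rik overlap 3.32% of those of Myh2. Exons of Mhrt, Gm29015 and Gm31251, all at 0 counts, overlap 13.3% of those of Myh7, the member with the fewest counts. The strand setting is likewise not given. Myhas had 154 to 410 counts in a library, against 11377 to 33498 for Myh1.

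The libraries held 13.46 to 18.5 M gene counts in wild type and 19.25 to 28.19 M in Tnc-/-. Tnc had 4394 to 8137 counts in wild type and 698 to 1051 in Tnc-/- (log2 fold change -3.08, SE 0.21, edgeR adjusted p = 2.8e-04). Wild-type libraries 2 and 3 stood apart: 2026 smell and pheromone receptor genes, which a joint should hardly transcribe, summed to 1564 and 1113 CPM (counts scaled to a library total of 1000000) in them, to 89.77 CPM in wild-type library 1 and to 33.34 to 41.5 CPM in Tnc-/-. The files of the genotypes list different numbers of identifiers (56980 and 56941), so counting run and genotype cannot be told apart. Values without wild-type libraries 2 and 3 are given below beside the members and the lists of muscle, myosin and blood cell genes. The receptor sum, used below as a covariate, was higher in every wild-type library than in any Tnc-/- library. It is thus confounded with genotype, and fits with it cannot divide genotype from background.

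Adult fast myosin made up nearly all of the myosin heavy chain RNA in both genotypes. Per kb of transcript, the scale on which genes can be compared, Myh4 was at 696.5 ± 64.5 CPM per kb in wild type (SD, n = 3) and 1356 ± 186.7 in Tnc-/- (SD, n = 4). Myh2 was at 264.2 ± 129.7 and 375.2 ± 73.6 CPM per kb, and Myh1 at 148.8 ± 22.6 and 208.9 ± 50.2. The other 3 were far lower: Myh8 at 15.2 and 13.8 CPM per kb, Myh3 at 9.22 and 9.46, and Myh7 at 3.4 and 7.92, as means of wild type and Tnc-/-. The order Myh4, Myh2, Myh1, Myh8, Myh3, Myh7 held in 6 of 7 libraries. In Tnc-/- library 3, Myh7 stood above Myh8 and Myh3. Neighbours at the low end did not separate beyond their spread in Tnc-/-: Myh8 had an SD of 5.83, Myh3 of 3.96 and Myh7 of 1.37 CPM per kb. By counts, Myh4 ranked between 8 and 15 among all genes of a library, and Myh7 between 3207 and 13435.

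**Figure D1:**
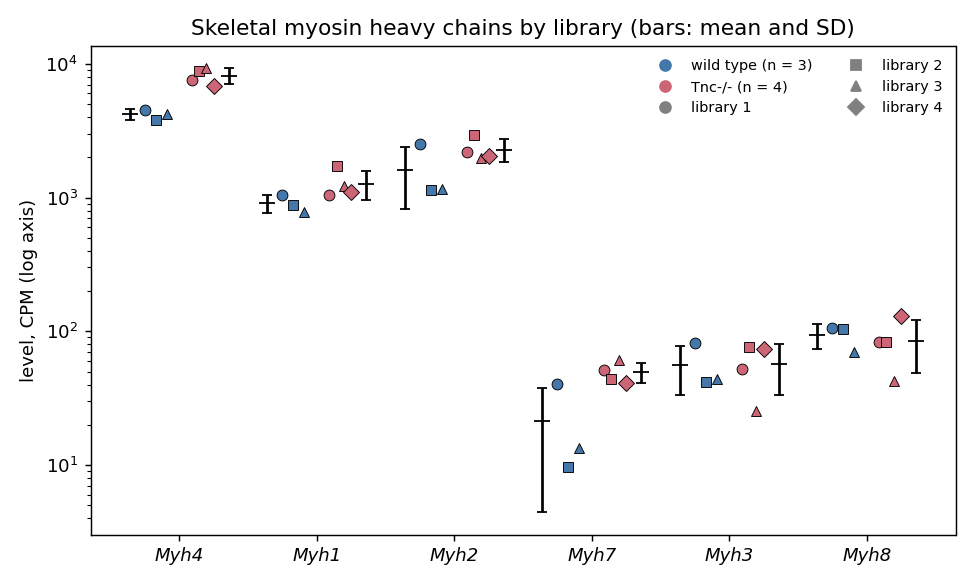
Levels of the 6 myosin heavy chain genes in CPM, on a log axis, with 1 point for each library and bars for the mean ± SD of wild type (n = 3) and Tnc-/- (n = 4). Myh4 separates the genotypes (3776 to 4545 against 6839 to 9271 CPM), and so, by a narrow gap, does Myh7 (9.731 to 40.48 against 41.32 to 60.63 CPM). The groups of Myh1, Myh2, Myh3 and Myh8 overlap.

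Myh4, the IIb chain of the fastest fibres, was the only member called higher in Tnc-/- in the fit of all 7 libraries. In order of library number, here and below, its level was 4545, 3776 and 4250 CPM in wild type. In Tnc-/- it was 7632, 8885, 9271 and 6839 CPM. Every Tnc-/- library lay above every wild-type library, wild-type library 1 included, and the ratio of the means was 1.95. The log2 fold change was 1.18 (SE 0.22, edgeR quasi-likelihood test, adjusted p = 0.00856), on the scale of TMM, the composition scaling that edgeR applies to library sizes. Of the 6 members, 1 was called, beside 29.0% of the 17791 genes tested and 10.3% called higher. Without wild-type libraries 2 and 3 the fold change of Myh4 was 0.95 and it was no longer called (edgeR adjusted p = 0.114), where 4.45% of genes were called. That fit has 1 wild-type library, taken to vary like the Tnc-/- libraries.

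Myh7, the slow chain that cardiac ventricle also makes, was at 40.48, 9.731 and 13.42 CPM in wild type and at 51.19, 44.35, 60.63 and 41.32 CPM in Tnc-/-. The groups did not overlap, as for Myh4, but wild-type library 1 lay just under the lowest Tnc-/- library. Groups with all Tnc-/- libraries higher were seen in 10.4% of tested genes. The log2 fold change of Myh7 was 1.38 (SE 0.48) and missed the threshold (edgeR adjusted p = 0.062). It rested on wild-type libraries 2 and 3: without wild-type library 1 it was 2.46 (edgeR adjusted p = 5.9e-07), and it was 0.39 without wild-type libraries 2 and 3. With the summed receptor genes as a covariate, which is confounded with genotype, the fold change of Myh7 was -0.23. The cardiac genes Myl7, Nppa and Nppb were at 0 in all libraries, and the 7 cardiac markers summed to 39.9 to 72.8 CPM in wild type and 14.4 to 27.7 in Tnc-/-. Most of this sum in wild type was Sln, which skeletal muscle also makes (34.26, 48.8 and 31.66 CPM), so it says little about cardiac tissue.

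Myh2, the IIa chain of fast oxidative fibres, was at 2518, 1138 and 1165 CPM in wild type and at 2176, 2942, 1971 and 2041 CPM in Tnc-/-. Wild-type library 1 lay within the Tnc-/- range, and the other 2 wild-type libraries lay below it. The log2 fold change was 0.70 (SE 0.35, edgeR adjusted p = 0.163). It was 1.36 without wild-type library 1 (edgeR adjusted p = 1.2e-04) and -0.03 without wild-type libraries 2 and 3.

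Myh1, the IIx chain, was at 1054, 876.8 and 783.1 CPM in wild type and at 1046, 1715, 1219 and 1102 CPM in Tnc-/-. The groups overlapped only through wild-type library 1, which lay just above Tnc-/- library 1. The log2 fold change was 0.70 (SE 0.24, edgeR adjusted p = 0.0587). It was 0.99 and past the threshold without wild-type library 1 (edgeR adjusted p = 0.00176), 0.38 without wild-type libraries 2 and 3 (edgeR adjusted p = 0.463) and 0.27 with the receptor genes as a covariate (edgeR adjusted p = 0.751). The fit without wild-type library 1 called 4 of the 6 members, Myh1, Myh2, Myh4 and Myh7, where 64.2% of all genes were called; with the receptor genes as a covariate 0 of 6 and 2.23% of genes were called, and without wild-type libraries 2 and 3 also 0 of 6.

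**Figure D2:**
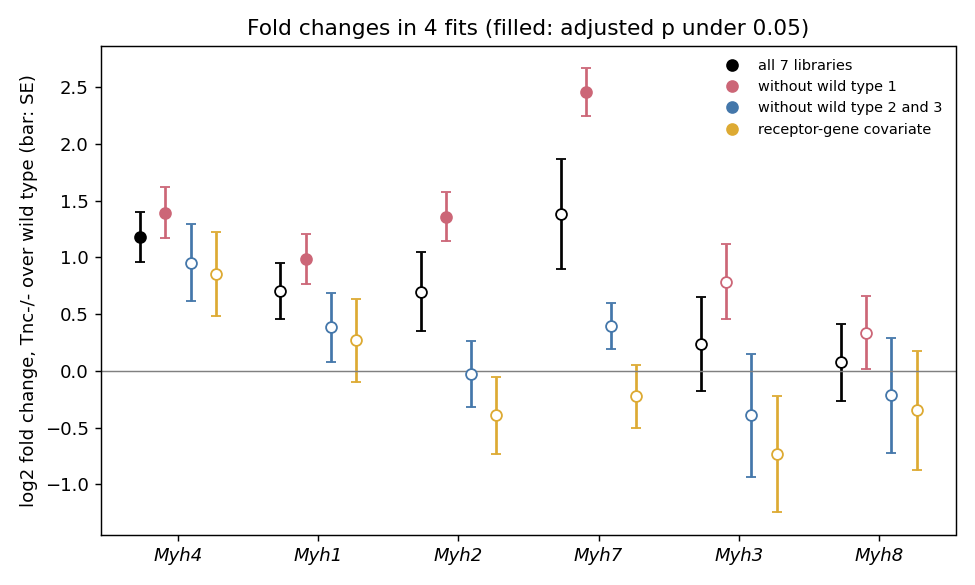
Log2 fold change of each member, Tnc-/- against wild type, with its SE, in 4 edgeR fits (filled points passed an adjusted p of 0.05). Myh4 lies between 0.85 and 1.39 in all 4, whereas Myh2 and Myh7 move from 1.36 and 2.46 without wild-type library 1 to -0.39 and -0.23 with the receptor genes as a covariate. That covariate is confounded with genotype.

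Myh3, the embryonic chain, was at 81.07, 41.82 and 43.84 CPM in wild type and at 52.43, 76.66, 25.2 and 73.99 CPM in Tnc-/-. Myh8, the perinatal chain, was at 106.7, 104 and 70 CPM in wild type and at 83.4, 83.47, 42.49 and 130.2 CPM in Tnc-/-. For both genes the groups overlapped and the lowest library was Tnc-/- library 3. The log2 fold changes were 0.24 for Myh3 (SE 0.41, edgeR adjusted p = 0.696) and 0.07 for Myh8 (SE 0.34, edgeR adjusted p = 0.890). These SEs are wide and neither direction held. Without wild-type libraries 2 and 3 the values were -0.39 for Myh3 and -0.22 for Myh8, and with the receptor genes as a covariate -0.73 and -0.35. Without wild-type library 1 Myh3 was 0.79 (edgeR adjusted p = 0.0536), and under library totals without TMM Myh8 was -0.16. Over the 7 libraries the root mean square difference of the centred log2 CPM of Myh3 and Myh8 was 0.342. Over all pairs of members it ran from 0.274 (Myh1 and Myh2) to 1.16 (Myh8 and Myh7), and Myh1 and Myh4 (0.308) were also closer than Myh3 and Myh8.

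**Figure D3:**
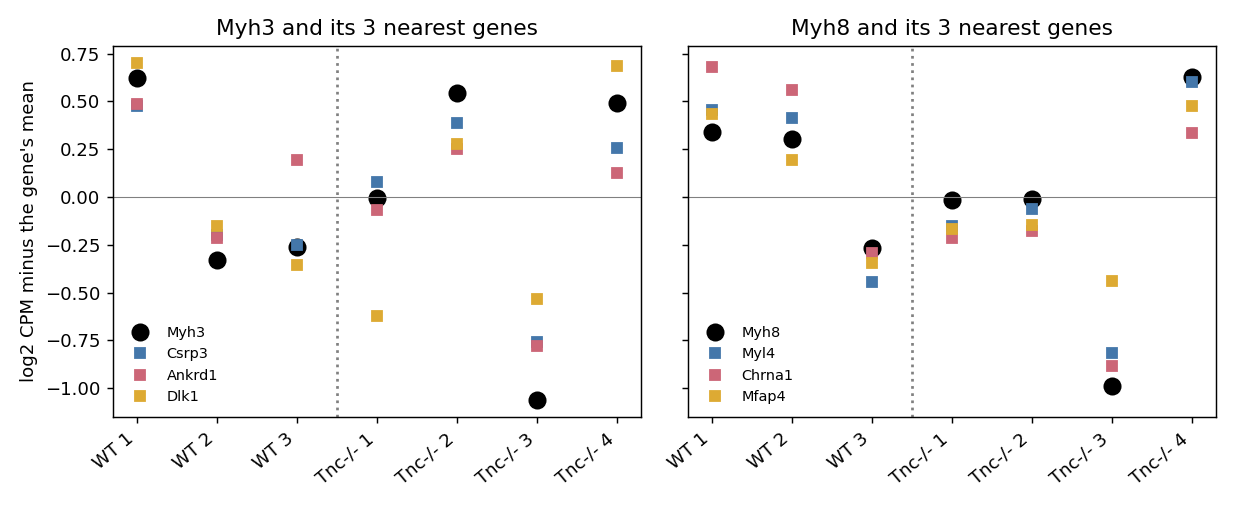
Centred log2 CPM of Myh3 and Myh8 in each of the 7 libraries (round points) with the genes most like each (square points). Both members are lowest in Tnc-/- library 3, and Csrp3 and Myl4 lie closest to them, at 0.177 and 0.124.

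The make-up of the 6-gene sum showed how the forms divide within a library, free of library scaling. Myh4 held 54.46, 63.49 and 67.19% of the sum in wild type and 69.12, 64.63, 73.64 and 66.87% in Tnc-/-. The means were 61.7 ± 6.55% (SD, n = 3) and 68.6 ± 3.85% (SD, n = 4), and the groups overlapped, with wild-type library 1 lowest. The difference of the means was 6.85 percentage points, and 3.22 without that library. Myh2 held 30.17, 19.14 and 18.42% in wild type and 19.71, 21.4, 15.66 and 19.96% in Tnc-/-. Its high share in wild-type library 1 is the counterpart of the low share of Myh4 there, and leaving that library out turned the difference of the means from negative to 0.40 percentage points. Myh1 held 12.38 to 14.75% in wild type and 9.474 to 12.48% in Tnc-/-. Myh7 held 0.1636 to 0.485% and 0.3226 to 0.4815%. Myh3 and Myh8 together held 2.25, 2.452 and 1.8% in wild type and 1.23, 1.165, 0.5377 and 1.996% in Tnc-/-, with only Tnc-/- library 4 inside the wild-type range. All of these shares overlapped between genotypes. Counting error was small beside the spread: 95% Wilson intervals, which cover counting error only, ran from 54.21 to 54.71% for Myh4 in wild-type library 1 and from 0.1379 to 0.1941% for Myh7 in wild-type library 2, which had 131 counts.

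**Figure D4:**
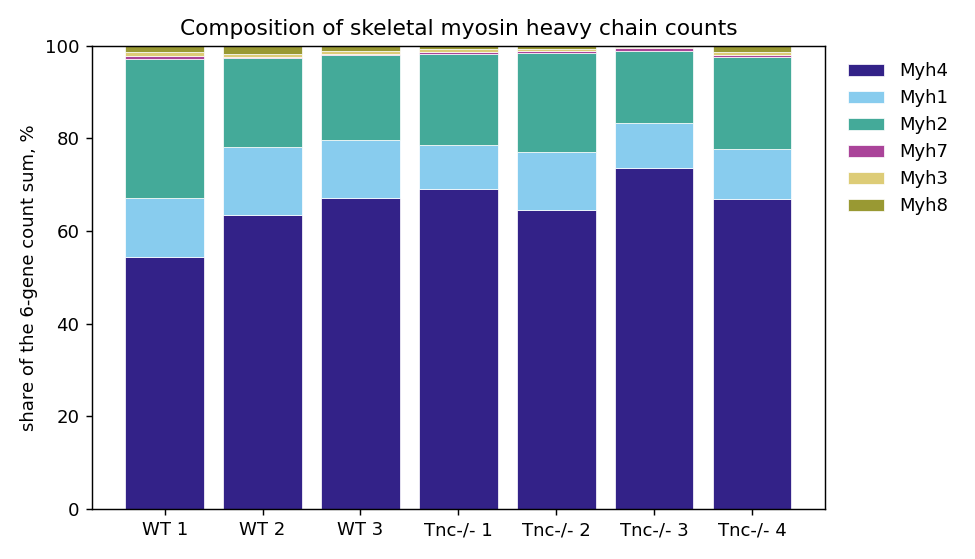
Share of each gene in the summed counts of the 6 myosin heavy chains, in percent, 1 stacked bar for each library. Myh4 holds 54.46 to 73.64% in all libraries, and wild-type library 1 has the largest share of Myh2 (30.17%).

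Ratios between members were tested within libraries, for 3 pairs, by exact two-sided permutation tests over 35 splits, whose smallest possible p is 0.0286. Myh4 to Myh2 was 1.805, 3.317 and 3.648 in wild type and 3.506, 3.02, 4.703 and 3.351 in Tnc-/-, a difference of 0.36 on the log2 scale (exact permutation p = 0.429). Myh4 to Myh7 was 112.3, 388 and 316.7 in wild type and 149.1, 200.4, 152.9 and 165.5 in Tnc-/-, a log2 difference of -0.53 (exact permutation p = 0.343). Myh3 to Myh4 differed by -0.97 on the log2 scale (exact permutation p = 0.143). None of the 3 passed the threshold, and all had a Benjamini-Hochberg adjusted exact p of 0.429. Without wild-type library 1 the difference was 0.047 for Myh4 to Myh2 and -1.08 for Myh4 to Myh7, and without wild-type library 2 the latter was -0.19. Groups overlapped for each of these 3 ratios. Of 7 further ratios, looked at without a test, only Myh7 to Myh3 had groups that did not overlap: 0.499, 0.233 and 0.306 in wild type and 0.976, 0.578, 2.41 and 0.558 in Tnc-/-. The gap was narrow, from 0.499 in wild-type library 1 to 0.558 in Tnc-/- library 4. Myh7 had only 131 and 195 counts in wild-type libraries 2 and 3. As this ratio was picked after its values were seen, no conclusion is drawn from it.

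The summed level of the 6 genes was 8345, 5946 and 6325 CPM in wild type and 11040, 13750, 12590 and 10230 CPM in Tnc-/-, 1.73 times higher on average, with Myh4 as its largest term. To set the members against the amount of muscle RNA, each was also divided by the summed counts of 15 genes made by fast and slow fibres alike, whose own sum overlapped between genotypes (21410 to 27370 and 23140 to 34870 CPM). Per 1000 counts of these fibre genes, Myh4 had 166.1, 176.3 and 190.1 counts in wild type and 329.8, 254.8, 366.9 and 286.7 in Tnc-/-, a ratio of 1.74 with no overlap. Myh1 had 38.51, 40.94 and 35.02 in wild type and 45.2, 49.19, 48.25 and 46.18 in Tnc-/-, a ratio of 1.24 with no overlap. Such separation was seen for 2.93% of all tested genes on this scale, where the median gene shifted by -0.38 (log2). Myh2, Myh7, Myh3 and Myh8 overlapped on it. Wild-type library 1, at 92.01 counts of Myh2 and 1.479 of Myh7, lay inside the Tnc-/- range for both.

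**Figure D5:**
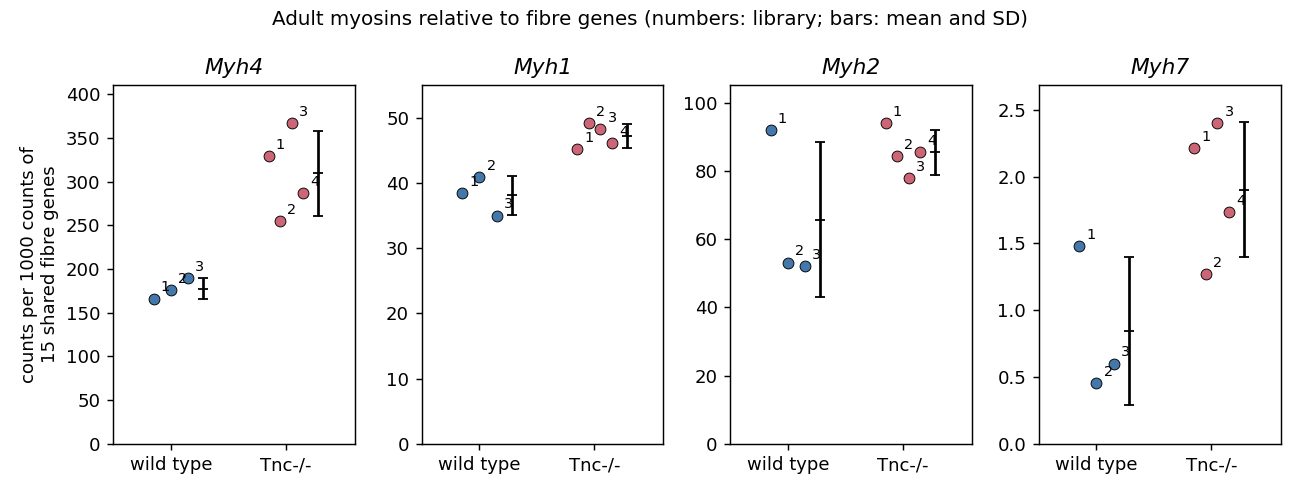
Counts of each member per 1000 counts of 15 fibre genes shared by fast and slow fibres, 1 point for each library, for the 4 adult members, with the mean ± SD of each genotype. The Tnc-/- points of Myh4 (254.8 to 366.9) and Myh1 (45.2 to 49.19) lie above all wild-type points, and those of Myh2 and Myh7 overlap.

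Among other fast fibre genes, 3 of 14 tested were called higher in Tnc-/- and 0 lower, beside 10.3% of all genes called higher, with a median log2 fold change of 0.59 against -9.0e-04 over all genes. They were Mybpc2, the fast myosin binding protein C (0.82, edgeR adjusted p = 0.0215), Mylk2, the kinase of the fast regulatory light chain (0.67, edgeR adjusted p = 0.0219), and Actn3, the fast-fibre alpha-actinin (0.72, edgeR adjusted p = 0.0341). Another of the 14, Tnnc2, the fast troponin C, was at only 0 to 2.151 CPM. Exons of Ube2c on the opposite strand overlap 74.0% of its exons, so its value is not read as a level. Whether reads were lost to this overlap was not tested. Of 12 slow fibre genes, 1 was called higher, the slow regulatory light chain Myl2 (1.08, edgeR adjusted p = 0.0428), and the median was 0.18. Of the 15 shared fibre genes, 3 were called higher, among them Trim63, a ubiquitin ligase of muscle atrophy (0.65, edgeR adjusted p = 0.0362), and Tcap, the titin cap (0.81, edgeR adjusted p = 0.0411). Without wild-type libraries 2 and 3, 0 fast, 0 slow and 1 shared gene were called; without wild-type library 1, 11 fast, 7 slow and 12 shared genes were called higher, where 5335 of all 21989 genes were called higher and 64.2% in either direction. Actn3, Tnnc2 and Tcap, and Nfatc1 and Eya1 below, were named after their values were seen.

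Of 15 tested genes of developing and regenerating fibres, 1 was called higher, the satellite cell cadherin Cdh15 (0.90, edgeR adjusted p = 0.0425), and 1 lower, the adhesion molecule Ncam1 (-0.98, edgeR adjusted p = 0.0208), with a median of -0.12. Ncam1 was at 39.4, 95.45 and 83.42 CPM in wild type and at 28.83 to 37.02 CPM in Tnc-/-, so its high values were those of wild-type libraries 2 and 3. Of 12 genes for myosin folding and thick filament assembly, 2 were called higher, Mybpc2 and Trim63, which the lists above hold too. Of 18 regulators of fibre type, Mef2d, a MEF2 transcription factor, and Nfatc1, a calcineurin target, were called higher (0.89 and 0.45, edgeR adjusted p = 0.00837 and 0.0439). Ppargc1a, a coactivator of oxidative genes, and Eya1, a cofactor of homeobox factors in fast fibres, were called lower (-1.01 and -1.05, edgeR adjusted p = 0.0355 and 0.0476). Both were highest in wild-type libraries 2 and 3. Ppargc1a was at 14.7, 26.74 and 36.75 CPM in wild type and at 8.742 to 13.93 CPM in Tnc-/-. Eya1 was at 11.13, 33.87 and 26.36 CPM in wild type and at 7.691 to 12.65 CPM in Tnc-/-. Beside these lists, 10.3% of all genes were called higher and 29.0% in either direction. Regulators and developmental genes were called less often than the latter. Without wild-type libraries 2 and 3, 0 regulators were called higher and 1 lower, and 0 developmental and 0 thick filament genes were called. Without wild-type library 1, 4 regulators were called higher and 6 lower, 3 developmental genes higher and 2 lower, and 11 thick filament genes higher. Of the regulators and the developmental genes this is less than the 64.2% of all genes called in that fit.

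Of 4 other sarcomeric myosin heavy chains, Myh15 and Myh6 were called lower (-3.95 and -2.04, edgeR adjusted p = 0.0106 and 0.0214), and both were highest in wild-type libraries 2 and 3. Myh15 was at 1.081, 19.76 and 13.15 CPM in wild type and at 0.3585 to 0.7273 CPM in Tnc-/-. Of 4 smooth muscle and non-muscle chains, Myh9, a non-muscle chain, was called higher (1.34, edgeR adjusted p = 0.00856). Of the markers of blood cells, 4 of 6 tested red cell genes and 4 of 7 neutrophil genes were called higher, beside 10.3% of all genes. Without wild-type library 1 these counts were 6 and 7. Without wild-type libraries 2 and 3, and likewise with the receptor genes as a covariate, 0 red cell and 0 neutrophil genes were called, and neither were Myh9, Myh15 or Myh6. The 7 red cell genes summed to 5440 to 9460 CPM in wild type and 12300 to 25200 in Tnc-/-, and the 7 neutrophil genes to 3020 to 5670 and 5710 to 10100. Their part in the results for the members was not tested. Fibroblast and tendon, cartilage and adipocyte sums overlapped between genotypes, with 0 of 7, 0 of 5 and 1 of 5 genes called. The called gene was Adipoq, the adipocyte hormone adiponectin (0.63, edgeR adjusted p = 0.0491), named after its values were seen. Of 5 tested neural genes, taken as a further sign of the background in wild-type libraries 2 and 3, 4 were called lower, and 1 without those libraries.

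For each member the genes with the most similar pattern were sought among 12199 genes over the 7 libraries, by the root mean square difference of centred log2 CPM. Closest to Myh1 were Art1 (0.0606), Ky (0.0729) and Coro6 (0.0735), the tightest likeness of any member. Myh4 was closest to Ubr4 (0.108), Zfp3 (0.114) and Myo18a (0.126). Myh8 was closest to Myl4 (0.124), the embryonic light chain, Chrna1 (0.223), a subunit of the muscle acetylcholine receptor, and Mfap4 (0.237). Myh3 was closest to Csrp3 (0.177), Ankrd1 (0.278) and Dlk1 (0.342). Myh2 was closest to Keap1 (0.142), Pcdh12 (0.153) and Timm44 (0.174), and Myh7 to Tubb1 (0.229), Ripor3 (0.241) and Siglec1 (0.247). Tubb1 and Siglec1 are known from platelets and macrophages; like Myh7 they were lowest in wild-type libraries 2 and 3. Among the members themselves, Myh1 was nearest to Myh2 (0.274) and Myh4 (0.308).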

How the data were processed

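Raw read counts per gene were deposited by the authors, 1 file per library. The submitters' processing notes name FastQC 0.11.9, HISAT2 2.2.1, HTSeq 2.0.2 and DESeq2 1.38.3 and the build GRCm39 (mm39); annotation and strand setting are not given in the sources used here. Rows naming no gene, found in the Tnc-/- files alone, held 30.1 to 32.7% of their reads and were left out. CPM are counts over the total of the 56854 shared identifiers; CPM per kb divides by the longest coding transcript of GENCODE M21 (GRCm38). All genes were fitted with edgeR 4.0.16 in R 4.3.3 (filterByExpr, TMM, robust quasi-likelihood F test, genotype as the term, Benjamini-Hochberg threshold 0.05), with SE as the fold change over the root of F, and the code was tested on simulated data. Ratios were tested by exact permutation, counting splits whose absolute difference reached that observed. Each library is 1 mouse, per the series text.

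Alternatives were DESeq2 1.42.0, limma 3.58.1 voom, other scalings and filters, a receptor-gene covariate, leaving out libraries and a replicate block. The counts per gene list without doubted libraries, and the doubled-tail p of the ratios, were added after seeing the data. Members and lists were chosen with earlier results of these data known. Named are all members, Tnc, the 2 tested genes with the smallest p from each list other than cell type markers, and for each member the 3 genes most like it; of these, 1 gene is not reported here. Tnnc1 and Actc1, which muscle makes, were at 0 in all libraries, so a 0 here is not read as absence.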

Additional observations from a re-analysis of the deposited data

How the results depend on the processing

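Myh4 kept its direction in all 19 alternatives and its call in 17: with the receptor-gene covariate it was 0.85 (edgeR adjusted p = 0.240) and without wild-type libraries 2 and 3 it was 0.95 (0.114); leaving out 1 library gave 1.09 to 1.39. Myh1 was called by DESeq2 (0.67, adjusted p = 0.0101) and with no filter (0.78, edgeR adjusted p = 0.0499982), and ran from 0.51 to 0.99 with 1 library left out; it was 0.27 with the covariate and 0.38 without wild-type libraries 2 and 3. Myh2 was -0.39 with the covariate and -0.030 without wild-type libraries 2 and 3, and ran from 0.48 to 1.36. Myh7 was 1.36 by DESeq2 (adjusted p = 0.0212) and -0.23 with the covariate, and ran from 1.03 to 2.46; Myh3 was -0.73 with the covariate and -0.39 without wild-type libraries 2 and 3, and ran from 0.048 (without wild-type library 2) to 0.79 (without wild-type library 1, edgeR adjusted p = 0.0536). Myh8 was -7.8e-04 by limma voom, -0.16 by library totals, -0.0035 with at least 10 counts in every sample, -0.35 with the covariate, -0.22 without wild-type libraries 2 and 3, -0.25 with the replicate block and -0.22 to 0.34 with 1 library left out. The Myh2 share difference ran from -5.48 to 0.40 percentage points, and Myh3 relative to fibre genes from -0.40 to 0.15, with 0.018 without wild-type library 1 and 0.15 without Tnc-/- library 3. With 1 library left out the log2 ratio differences ran from 0.047 to 0.55 (Myh4 to Myh2), -1.08 to -0.19 (Myh4 to Myh7) and -1.22 to -0.56 (Myh3 to Myh4); scaling per kb cannot change them. Their p by doubling the smaller tail was 0.457, 0.286 and 0.114 (exact permutation, smallest possible 0.0571). The count of genes called, 5159 (1830 higher, 3329 lower), was 9423 by DESeq2, 1890 by DESeq2 with Bonferroni adjustment, 1004 by limma voom (728 higher, 276 lower), 397 with the covariate, 825 without wild-type libraries 2 and 3, 1932 with the replicate block and 2229 to 14113 with 1 library left out, the highest without wild-type library 1. Library totals gave 951 higher and 4541 lower and moved the median of all genes to -0.243. Replicate numbers did not pair the samples (correlations of same-numbered libraries 0.00747, 0.117 and -0.000294); with the replicate block Myh4 was 1.25 (edgeR adjusted p = 0.0418). The cause of these changes was not tested. Depth does not limit Myh1, Myh2 or Myh4, whereas Myh7 had only 131 and 195 counts in wild-type libraries 2 and 3.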
